A study of Mus musculus with 6 samples.

Results

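Glucose use in haematopoietic stem cells (HSCs) was examined through 41 genes that cover oxygen sensing, glucose and lactate transport, glycolysis, the fate of pyruvate, and the building and breakdown of glycogen. The 41 genes were chosen by name, from their known roles, but with earlier results of these data known. Each was found as 1 row among the 46959 rows of the table of gene expression. All 41 were above the limit for testing, a value of at least 1 CPM (read counts scaled to a common library total) in at least 3 libraries, which 12955 genes met.

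The libraries came from bone marrow HSCs of control mice (3 replicates) and of MaeaCsf1r-Cre mice (3 replicates). In the latter the Csf1r-iCre transgene deletes floxed Maea, which encodes a subunit and E3 ligase of the CTLH complex, in HSCs and also in macrophages and other cells in which the Csf1r promoter is or has been active. The mice were littermates of both sexes on a C57BL/6 background, 8 weeks old by the series' design text, while the study's methods give a wider age range, and the floxed or Cre alleles of these controls were not given in the sources used here. Each replicate held RNA of about 2000 HSCs sorted by flow cytometry and pooled from a pair of mice, so p-values measure the spread between such pools. Maea itself (chr5:33335509-33373296, GRCm38) was at 108, 116 and 123 CPM in control replicates 1, 2 and 3 and at 76.9, 88.6 and 101 CPM in MaeaCsf1r-Cre replicates 1, 2 and 3, lower in every library of the deleted group. Reads on the deleted exons and on the rest of the gene are not separated in these values.

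Glycolysis splits glucose into pyruvate in the cytoplasm. Pyruvate is then either reduced to lactate by lactate dehydrogenase or carried into mitochondria and oxidised by pyruvate dehydrogenase, which pyruvate dehydrogenase kinases switch off. Glycogen is the stored form of glucose, from which glycogen phosphorylase frees glucose 1-phosphate. In low oxygen the transcription factor HIF-1, whose alpha subunit is the product of Hif1a, is no longer hydroxylated by the EGLN prolyl hydroxylases and marked for destruction by VHL, and it then raises transcription of many glycolytic genes. Quiescent HSCs are known for a low mitochondrial respiration and a reliance on glycolysis in their bone marrow niche.

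HIF-1 binds DNA at the letters ACGTG or GCGTG, and these letters were searched on both strands of the RefSeq promoters of GRCm38.p6, taken as 250 bases before to 50 bases after each transcription start. The palindrome CACGTG holds ACGTG on both strands and counts as 2 matches. Of the 41 genes 40 had at least 1 promoter in that table, while Slc2a3 had none. At least 1 match was present in 46 of their 58 promoters (79.3%) and in 35 of the 40 genes (87.5%), against 14380 of 32851 promoters of all genes (43.8%) and 46.7% of all genes. The shares were not matched for base composition, and the shares of genes were not matched for the number of promoters per gene. A match describes only these letters and is neither a measured binding site nor a cause of any value given here. The promoters of 4 members are shown in lower case, with the searched letters or their reverse complement in capitals. Those of Pygm and Hk3 belong to the members with the widest difference between the groups, that of Pdk1 to a classic hypoxia target whose groups did not overlap, and that of Ldha to the member at the highest level, which held 7 matches. For Pdk1 and Ldha, each with a second promoter in the table, the one with more matches is shown, and the other (chr2:71874654-71874953 and chr7:46846832-46847131) held 0 and 2.
Pygm, chr19:6384158-6384457, plus strand: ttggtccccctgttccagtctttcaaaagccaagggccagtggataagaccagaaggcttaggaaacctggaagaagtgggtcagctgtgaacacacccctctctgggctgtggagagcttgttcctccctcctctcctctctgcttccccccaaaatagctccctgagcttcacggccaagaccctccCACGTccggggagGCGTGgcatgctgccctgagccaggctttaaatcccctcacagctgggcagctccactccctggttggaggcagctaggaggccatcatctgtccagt
Hk3, chr13:55021336-55021635, minus strand: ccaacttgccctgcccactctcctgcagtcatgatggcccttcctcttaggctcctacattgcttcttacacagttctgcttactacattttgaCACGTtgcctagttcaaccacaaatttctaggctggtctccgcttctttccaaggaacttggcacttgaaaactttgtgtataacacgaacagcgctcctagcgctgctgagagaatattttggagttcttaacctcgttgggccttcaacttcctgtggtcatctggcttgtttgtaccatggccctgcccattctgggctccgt
Pdk1, chr2:71872974-71873273, plus strand: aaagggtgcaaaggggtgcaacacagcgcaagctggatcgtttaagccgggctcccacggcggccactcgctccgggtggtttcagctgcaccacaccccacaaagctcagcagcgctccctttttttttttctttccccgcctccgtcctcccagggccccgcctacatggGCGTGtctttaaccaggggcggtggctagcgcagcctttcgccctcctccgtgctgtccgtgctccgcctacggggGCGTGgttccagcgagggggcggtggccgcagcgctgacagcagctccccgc
Ldha, chr7:46845554-46845853, plus strand: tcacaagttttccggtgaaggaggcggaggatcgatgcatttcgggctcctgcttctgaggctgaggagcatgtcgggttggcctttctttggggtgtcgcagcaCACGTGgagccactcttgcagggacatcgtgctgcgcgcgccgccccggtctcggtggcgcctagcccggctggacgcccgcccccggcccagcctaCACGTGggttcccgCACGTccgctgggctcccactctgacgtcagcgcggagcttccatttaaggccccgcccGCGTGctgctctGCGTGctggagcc

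The number of reads behind each library's scaling, read from the step between low values, was between 32968000 and 39614000 in control and between 44159000 and 60937000 in MaeaCsf1r-Cre libraries. The least abundant measurement of any member, Pygm in MaeaCsf1r-Cre replicate 1, rested on 47.1 reads, and 3 reads corresponded to 0.0492 to 0.0910 CPM, which covers counting error only. All 15 HSC marker genes checked were above the testing limit, with a summed level of 1660 to 2638 CPM in control and 1194 to 2097 CPM in MaeaCsf1r-Cre libraries. Of these markers 12 had a lower mean in MaeaCsf1r-Cre HSCs, 0 were called by limma (0 at an unadjusted p under 0.05, but 9 when numbered pairs were fitted as a block), and their median log2 fold change was -0.35, against -0.06 over all genes. All 20 genes of a cell division list had a higher mean, with a median of 0.15 and 0 called (0 at an unadjusted p under 0.05, 2 with the block). All 20 had overlapping groups, 5 were higher in all 3 numbered pairs, and their median difference in pair 2 was -0.05. Their summed level was 2081 to 2633 CPM in control and 1977 to 2975 CPM in MaeaCsf1r-Cre libraries. The part of either list in the values of the members was not tested. Libraries with the same replicate number deviated from their group means together, as described with the processing. Replicate 1 was the lowest library of its group in both groups for 20 of the 41 members (48.8%), against 28.7% of all genes tested, and the highest in both for 6 members (14.6%), against 23.5%.

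None of the 41 genes differed between MaeaCsf1r-Cre and control HSCs at an adjusted p under 0.05 in limma's moderated test, with or without the replicate number as a block. Their smallest adjusted p was 0.967, and 0.101 with the block. With the block and a correction for transcript length together it was 0.0566 from limma, for Pygm, while 17 of 12831 genes passed. In the test with or without the block alone, 1 gene among all 12955 tested passed (0.00772%), so that it called almost nothing anywhere. Among 200 genes changed 2-fold in simulated data, the test recovered 116 without the block and 0 with it. The lack of calls therefore does not exclude changes of that size. An unadjusted p under 0.05 was found for 3 members (Pygm, Hk3 and Hif1a) against 3.99% of all genes, and with the block for 7 members (Pygm, Hif1a, Hk3, Egln3, Slc2a3, Ldhb and Pygl) against 13.9% of all genes. All 7 were lower in MaeaCsf1r-Cre HSCs, while 60.9% of all genes tested had a lower mean. The share of lower genes among all those with such a p was not counted.

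The mean was lower in MaeaCsf1r-Cre HSCs for 31 members (75.6%) and higher for 10, while 60.9% of all genes tested were lower. On the scale of log2(CPM + 1), on which every log2 fold change here is given as MaeaCsf1r-Cre minus control, the median over the members was -0.09 against -0.06 over all genes. Longer transcripts had lower log2 fold changes (Spearman's rho -0.31 over 12831 genes, not independent of each other), and with a correction for length the medians were -0.03 and 0.03. In 5 members (12.2%) every MaeaCsf1r-Cre library lay below every control library, namely Egln1, Slc2a3, Hk3, Pdk1 and Pygm, against 6.06% of all genes in that direction and 8.55% in either direction. No member lay above in the same way, against 2.49% of all genes. Without control replicate 1 there were 18 such members in either direction (43.9%, against 28.9% of all genes). Without control replicate 2 there were 6 (14.6%, against 13.1%) and without control replicate 3 there were 7 (17.1%, against 14.7%). Without MaeaCsf1r-Cre replicate 1 there were 5 (12.2%, against 13.8%), a share below that of all genes. Without MaeaCsf1r-Cre replicate 2 there were 10 (24.4%, against 18.6%) and without MaeaCsf1r-Cre replicate 3 there were 12 (29.3%, against 21.8%). Fewer libraries make separation easier. Compared within same-numbered pairs, 14 members were lower in all 3 pairs and 3 members (Hk1, Eno1 and Pdhb) were higher in all 3, against 23.5% and 13.2% of all genes. In bulk RNA, fewer cells of a type and less RNA per cell cannot be told apart, and this holds for each value below.

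**Figure D1:**
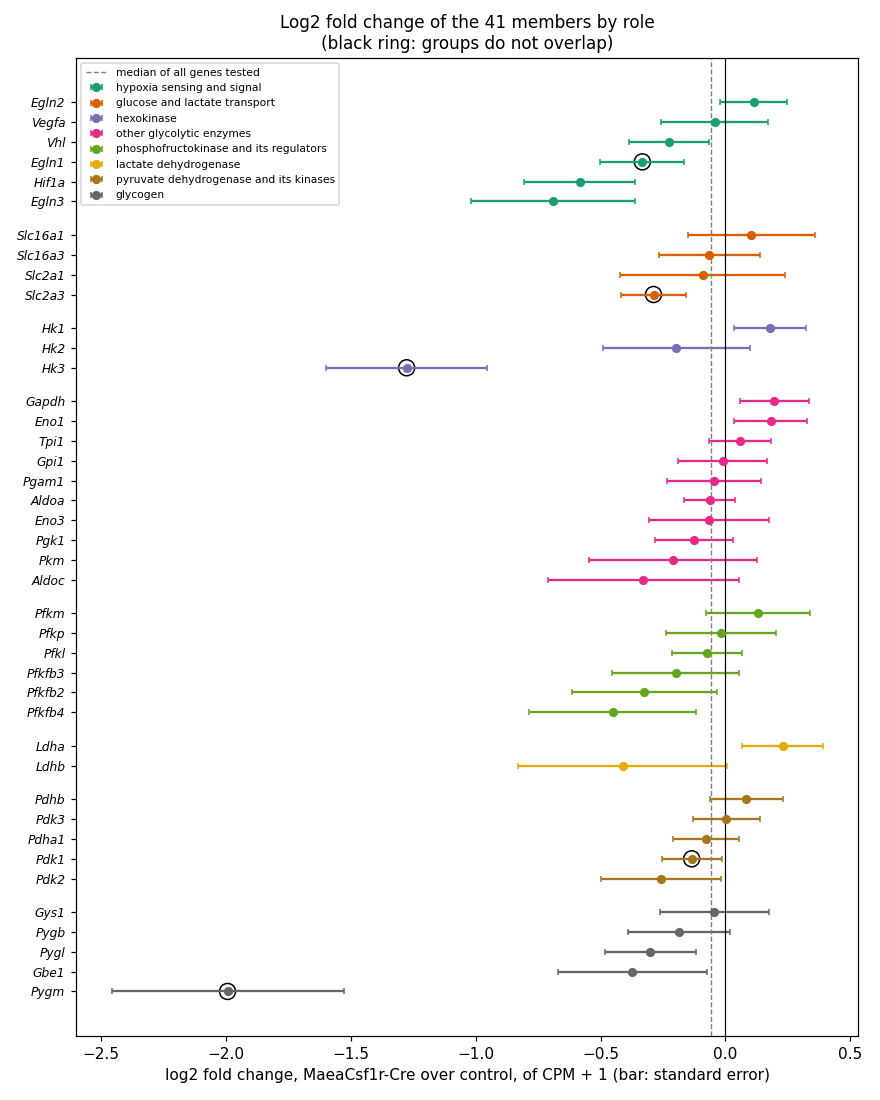
Log2 fold change (MaeaCsf1r-Cre minus control, on log2(CPM + 1)) of each member with its standard error, grouped by role, with a ring around the 5 members whose groups did not overlap and a dashed line at the median of all genes, -0.06. The 2 members farthest below 0 are Pygm at -1.99 and Hk3 at -1.28, and the median of the 41 is -0.09.

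Of the 6 genes of oxygen sensing, 5 had a lower mean in MaeaCsf1r-Cre HSCs and 1, Egln2, a higher one. Hif1a (chr12:73901375-73947530) was at 55.8, 64.8 and 86.5 CPM in control replicates 1, 2 and 3 and at 36.2, 42.7 and 58.7 CPM in the MaeaCsf1r-Cre replicates. Control replicate 1 lay just below MaeaCsf1r-Cre replicate 3, so the groups overlapped, although within each numbered pair the MaeaCsf1r-Cre library was the lower one, by 0.61, 0.59 and 0.55 on the log2 scale. The means were 69.0 ± 15.8 and 45.9 ± 11.6 CPM (SD, n = 3 each), and the log2 fold change was -0.58 (SE 0.22, adjusted p = 0.967 from limma), or -0.43 with the length correction. An antisense gene that overlaps Hif1a, Gm15283, was at no more than 0.611 CPM in any library.

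The prolyl hydroxylases are the oxygen sensors of the pathway, and Egln3 is itself a known target of HIF-1. Egln3 was at 8.64, 16.4 and 12.2 CPM in control and at 4.22, 8.99 and 9.13 CPM in MaeaCsf1r-Cre replicates 1, 2 and 3. It was lower in each numbered pair, while MaeaCsf1r-Cre replicates 2 and 3 lay just above control replicate 1. The log2 fold change was -0.69 (SE 0.33, adjusted p = 0.967 from limma), and -0.37 without MaeaCsf1r-Cre replicate 1. Egln1, which encodes the main hydroxylase of HIF-1 alpha, was at 31.4, 40.5 and 28.8 CPM in control and at 25.3, 24.7 and 28.6 CPM in MaeaCsf1r-Cre HSCs. The groups did not overlap, but the gap between the lowest control and the highest MaeaCsf1r-Cre library was 0.197 CPM and the log2 fold change was -0.33 (SE 0.17, adjusted p = 0.967 from limma), or -0.21 with the length correction.

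Egln2, the third hydroxylase, averaged 49.1 ± 4.26 CPM in control and 53.2 ± 5.02 CPM in MaeaCsf1r-Cre HSCs (SD, n = 3 each). Vhl, which encodes the ubiquitin ligase subunit that captures hydroxylated HIF alpha, averaged 34.7 ± 1.90 and 29.7 ± 5.16 CPM in the same order. Both pairs of groups overlapped. Vegfa, the angiogenic growth factor that HIF-1 induces, was among the least abundant members at 7.61, 5.98 and 9.08 CPM in control and 6.27, 7.18 and 8.35 CPM in MaeaCsf1r-Cre HSCs. Its log2 fold change of -0.04 (SE 0.21) lay within its error, and its sign turned with median ratio scaling, quantile normalization or the length correction.

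Glucose enters cells through the facilitative transporters GLUT1 (Slc2a1) and GLUT3 (Slc2a3). Slc2a3 (chr6:122727809-122801640) was at 98.4, 105 and 108 CPM in control and at 74.2, 85.6 and 95.8 CPM in MaeaCsf1r-Cre replicates 1, 2 and 3. All control libraries lay above all MaeaCsf1r-Cre libraries, with a gap of 2.57 CPM and a log2 fold change of -0.29 (SE 0.13, adjusted p = 0.967 from limma), or -0.16 with the length correction and -0.19 without MaeaCsf1r-Cre replicate 1. Per kilobase of transcript, GLUT3 RNA measured 26.2 CPM in control and 21.5 CPM in MaeaCsf1r-Cre HSCs, above GLUT1 RNA at 9.66 and 8.89 CPM. Slc2a1 was at 18.4, 38.6 and 37.4 CPM in control and at 19.0, 34.3 and 33.7 CPM in MaeaCsf1r-Cre replicates. It followed the replicate number and not the genotype, with both replicates 1 near the same low level and a log2 fold change of -0.09 (SE 0.33) that turned sign with the length correction.

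Lactate leaves and enters cells through the monocarboxylate transporters MCT1 (Slc16a1) and MCT4 (Slc16a3). Slc16a1 averaged 232 ± 65.1 CPM in control and 249 ± 73.0 CPM in MaeaCsf1r-Cre HSCs, and Slc16a3 5.80 ± 0.367 and 5.55 ± 1.01 CPM (SD, n = 3 each). Per kilobase MCT1 RNA was at 52.4 and 56.2 CPM and MCT4 RNA at 1.34 and 1.28 CPM, the lowest level of all members in control HSCs.

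**Figure D2:**
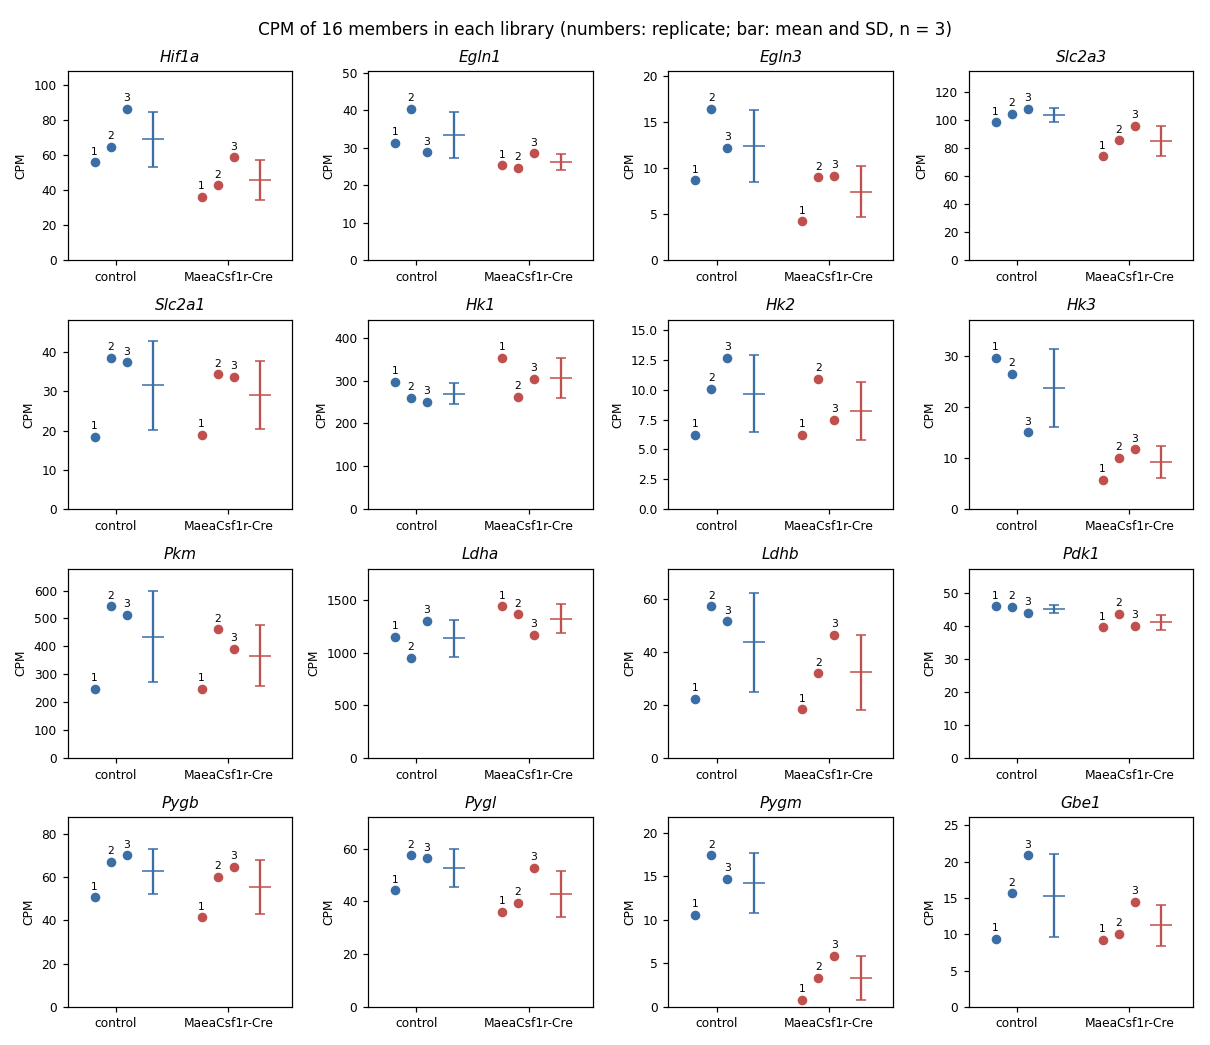
CPM of 16 members in each library, 1 panel a gene with its own axis from 0, with points numbered by replicate and bars for the group mean and SD (n = 3). Hk3 and Pygm show separate groups, with all MaeaCsf1r-Cre points at or below 11.7 and 5.84 CPM, while the groups of Hk1, Pkm and Ldha overlap.

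Hexokinase traps glucose in the cell as glucose 6-phosphate, and 3 of its isozymes were measured. Hk3 (chr13:55005985-55021385), an isozyme typical of myeloid cells, was at 29.6, 26.4 and 15.01 CPM in control and at 5.74, 10.03 and 11.7 CPM in MaeaCsf1r-Cre replicates 1, 2 and 3. The groups did not overlap, yet control replicate 3 lay only 3.31 CPM above MaeaCsf1r-Cre replicate 3, and the paired differences on the log2 scale were -2.18, -1.31 and -0.33. The means were 23.7 ± 7.67 and 9.16 ± 3.08 CPM (SD, n = 3 each). On the log2 scale the difference was -1.28 (SE 0.32, adjusted p = 0.967 from limma) and -0.82 without replicate 1 of both groups.

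Hk1, the widely expressed isozyme bound to mitochondria, was at 297, 259.8 and 251 CPM in control and at 354, 261 and 304 CPM in MaeaCsf1r-Cre replicates 1, 2 and 3. It was higher in each numbered pair, the groups overlapped, and the log2 fold change was 0.18 (SE 0.14, adjusted p = 0.967 from limma), 0.07 without MaeaCsf1r-Cre replicate 1 and 0.32 with the length correction. Its antisense neighbour Hk1os was at no more than 2.10 CPM. Hk2, the isozyme that HIF-1 induces in many cells, was at 6.25, 10.1 and 12.7 CPM in control and at 6.23, 10.9 and 7.49 CPM in MaeaCsf1r-Cre HSCs, with a log2 fold change of -0.20 (SE 0.30). Most hexokinase RNA was that of Hk1. Of the summed CPM per kilobase of the 3 isozymes, Hk1 held 87.4 ± 1.81% in control and 94.1 ± 2.23% in MaeaCsf1r-Cre HSCs, and Hk3 held 10.1 ± 2.57% and 3.86 ± 1.54% (SD, n = 3 each). The Hk3 share was 11.5, 11.6 and 7.11% in control replicates and 2.08, 4.71 and 4.78% in MaeaCsf1r-Cre replicates, which did not overlap, while the sum of the isozymes was 72.1 and 76.0 CPM per kilobase.

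Markers of macrophages, in which Csf1r-Cre is also active, also had lower means in MaeaCsf1r-Cre HSCs. Of 19 macrophage genes listed, 12 were tested, 11 had a lower mean in MaeaCsf1r-Cre HSCs and 0 were called by limma (5 at an unadjusted p under 0.05, against 3.99% of all genes). The groups of 4 (C1qa, C1qb, C1qc and Csf1r) did not overlap (33.3%, against 8.55% of all genes). The paper cites reported Csf1r transcripts in stem and progenitor cells, so Csf1r does not mark macrophages alone. C1qb, a complement subunit made by tissue macrophages, was at 8.98, 3.79 and 5.37 CPM in control and at 0.0328, 0 and 0.474 CPM in MaeaCsf1r-Cre replicates. C1qa was at 0 in MaeaCsf1r-Cre replicates 1 and 2. With under 1 CPM in every MaeaCsf1r-Cre library, C1qb passed the testing limit only through its control libraries. That limit favoured its lower mean and separate groups, and the counts and shares of this list were not corrected for it. The summed level of the whole list, most of it Lyz2 and Apoe, was 563 to 648 CPM in control and 351 to 642 CPM in MaeaCsf1r-Cre libraries. A list of 17 granulocyte and monocyte genes, of which 6 were tested, summed to 78.6 to 323 and 77.9 to 173 CPM, and a list of 12 B-cell and lymphoid genes, of which 3 were tested, to 41.5 to 73.5 and 15.2 to 31.9 CPM. Of the 6 granulocyte and monocyte genes 4 had a lower and 2 a higher mean, all with overlapping groups. Their median log2 fold change was -0.17, and 0.13 without replicate 1 of both groups. All 3 lymphoid genes had a lower mean, 2 of them without overlap (66.7%, against 8.55% of all genes). The sort for lineage-negative Sca-1+ c-Kit+ CD150+ CD48- cells, with CD11b, Gr-1 and B220 among the lineage markers, is meant to remove such cells. Their part in the values of Hk3 was not tested. Of 10 tested erythroid genes 6 had a higher and 4 a lower mean in MaeaCsf1r-Cre HSCs, and of 7 tested megakaryocyte genes 2 had a higher and 5 a lower mean.

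**Figure D3:**
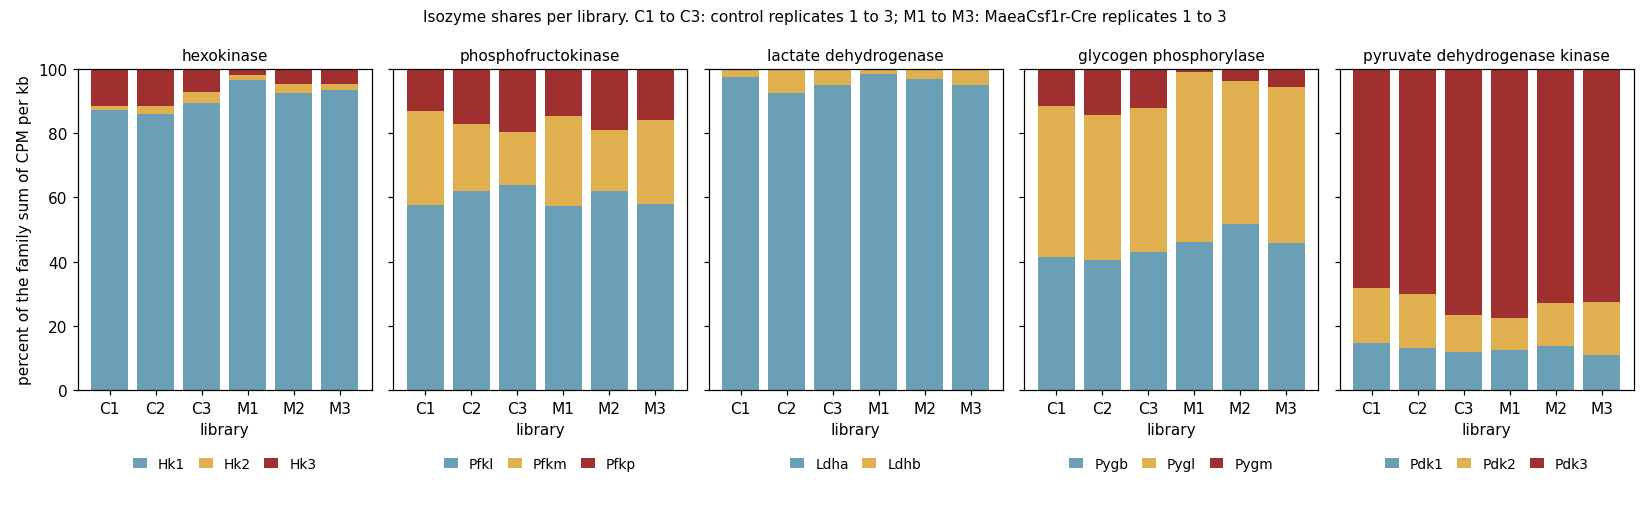
Share of each isozyme in the summed CPM per kilobase of its family, in percent, for each library (C1 to C3 control, M1 to M3 MaeaCsf1r-Cre replicates). The Hk3 and Pygm shares are smaller in every MaeaCsf1r-Cre library, with means of 3.86% and 3.57%, than in every control library, with means of 10.1% and 12.7%.

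Phosphofructokinase commits glucose to glycolysis. Pfkl, its liver-type subunit, was at 154, 205 and 204 CPM in control and at 174, 180.0 and 177 CPM in MaeaCsf1r-Cre replicates. Pfkp, the platelet-type subunit, was at 39.1, 63.3 and 70.3 CPM in control and at 49.98, 61.5 and 54.7 CPM in MaeaCsf1r-Cre replicates, and it overlaps the more abundant Pitrm1 at 139 to 267 CPM. For both genes control replicate 1 was the lowest of all 6 libraries and the MaeaCsf1r-Cre libraries lay inside the control range. Their log2 fold changes were -0.07 (SE 0.14) and -0.02 (SE 0.22), and both turned sign with the length correction, that of Pfkp also with median ratio scaling and quantile normalization. Pfkm, the muscle-type subunit, averaged 51.4 ± 9.89 and 56.6 ± 12.0 CPM in control and MaeaCsf1r-Cre HSCs (SD, n = 3 each).

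Within the family Pfkl held 61.1 ± 3.23% of the CPM per kilobase in control and 59.0 ± 2.496% in MaeaCsf1r-Cre HSCs (SD, n = 3 each). The genes Pfkfb2, Pfkfb3 and Pfkfb4, whose products set fructose 2,6-bisphosphate, the activator of phosphofructokinase, were at 10.1 CPM or less in every library. Their log2 fold changes were -0.32 (SE 0.29), -0.20 (SE 0.25) and -0.45 (SE 0.33), and each had overlapping groups. Pfkfb4 was at 2.84 and 4.44 CPM in MaeaCsf1r-Cre replicates 1 and 2 and at 8.66 CPM in replicate 3, above all controls.

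The remaining enzymes of glycolysis were 10 genes, of which 7 had a lower and 3 a higher mean in MaeaCsf1r-Cre HSCs, and none had groups that did not overlap. Their log2 fold changes ran from -0.33 for Aldoc (SE 0.38) to 0.20 for Gapdh (SE 0.14). Per kilobase the most abundant members after Ldha were the glycolytic enzymes Tpi1 at 244, Aldoa at 224, Pkm at 179 and Eno1 at 144 CPM in control HSCs, and 254, 214, 151 and 164 CPM in MaeaCsf1r-Cre HSCs. This order counts each gene's own row and leaves out the near-identical copies described below, which held 49.3 to 58.7% of the sum for Eno1. Aldoa, the main aldolase, averaged 347 ± 15.4 and 332 ± 2.84 CPM, and Tpi1, triose phosphate isomerase, 393 ± 32.6 and 409 ± 33.6 CPM (SD, n = 3 each). Glucose 6-phosphate isomerase (Gpi1), phosphoglycerate mutase (Pgam1) and the muscle-type enolase (Eno3), the least abundant of the 10, had log2 fold changes of -0.01 (SE 0.18), -0.05 (SE 0.19) and -0.07 (SE 0.24), all within their error.

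Pkm, which encodes the pyruvate kinase of these cells, was at 248, 543 and 512 CPM in control and at 248, 461 and 392 CPM in MaeaCsf1r-Cre replicates 1, 2 and 3. Replicate 1 was the lowest library of each group and at the same level in both (the other 4 libraries were far above it). The log2 fold change was -0.21 (SE 0.34, adjusted p = 0.969 from limma), and -0.57 to 0.05 with 1 library left out. Gapdh was at 111, 129 and 150.4 CPM in control and at 139, 155 and 149.8 CPM in MaeaCsf1r-Cre replicates, and Pgk1, phosphoglycerate kinase, at 36.4, 38.8 and 48.8 CPM and at 38.2, 40.6 and 34.0 CPM. For both genes the groups overlapped, with log2 fold changes of 0.20 (SE 0.14) and -0.13 (SE 0.16).

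The levels of several glycolytic enzymes were uncertain because near-identical copies shared their sequence. Copies elsewhere in the genome, at 98% identity or more over 150 bases or more, were found in the table for 10 members. For Gapdh 76 such rows held 46.6 to 50.8% of the summed CPM of gene and copies. For Pgk1 the share was 77.1 to 80.6%, mostly on the processed pseudogene Pgk1-rs7 at 120.3 to 166 CPM, and for Eno1 it was 49.3 to 58.7%. Which of these reads came from the gene itself cannot be told from the table. Eno1b reached 177 CPM in control replicate 3 and 149 CPM in MaeaCsf1r-Cre replicate 3, against 61.3 to 78.8 CPM in the other libraries, so the split between gene and copy also differed by replicate number. With the copies added, Pgk1 reached 190.1 ± 34.1 CPM in control and 186 ± 10.47 CPM in MaeaCsf1r-Cre HSCs, Gapdh at 256 ± 33.7 and 279 ± 15.4 CPM, and Eno1 at 627 ± 69.7 and 693 ± 39.0 CPM (SD, n = 3 each). Each sum kept the sign of the gene alone, but the log2 fold change of Pgk1 went from -0.13 to -0.02 (SE 0.15), well within its error. That of Gapdh went from 0.20 to 0.13 (SE 0.13) and that of Eno1 from 0.18 to 0.15 (SE 0.13). No member was called by limma with the sums in place of the genes.

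**Figure D4:**
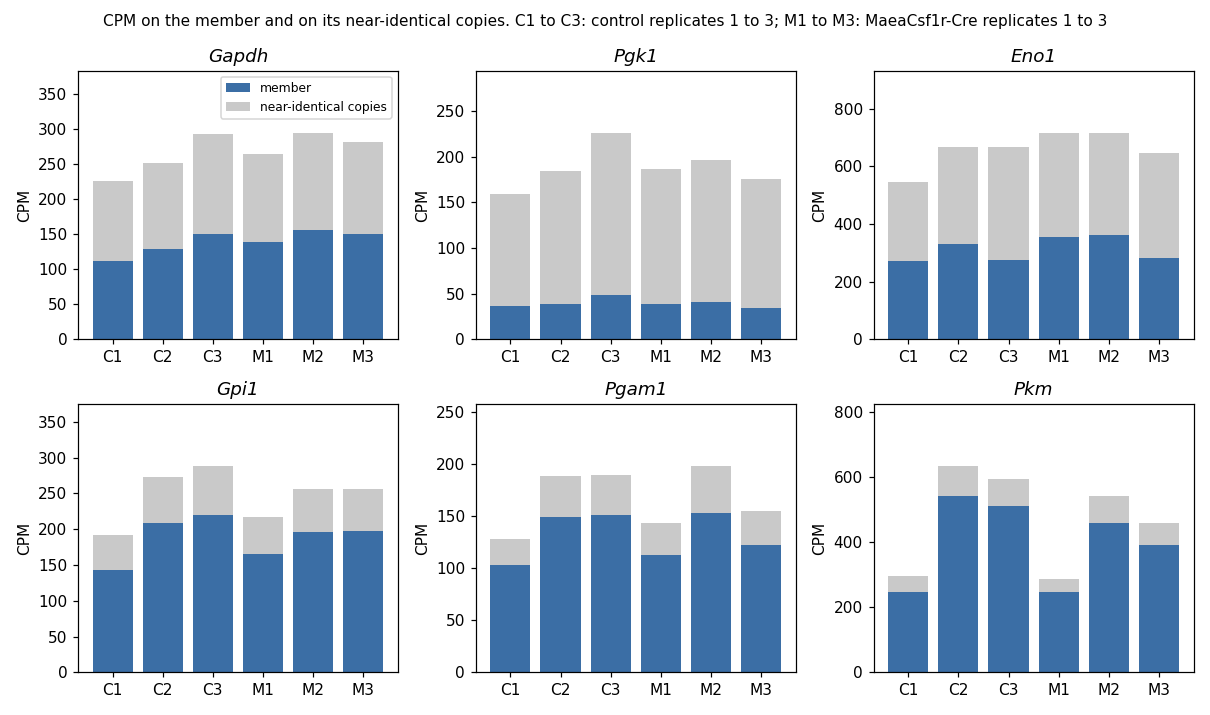
CPM of 6 members with near-identical copies, per library, with the gene's own row and the rows of its copies stacked. For Pgk1 the copies hold 77.1 to 80.6% of the sum, for Gapdh 46.6 to 50.8%, and the sums of the groups overlap.

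Lactate dehydrogenase regenerates the NAD+ that glycolysis needs. Ldha (chr7:46841475-46855627) was at 1155, 953 and 1308 CPM in control and at 1444, 1367 and 1174 CPM in MaeaCsf1r-Cre replicates 1, 2 and 3. Replicates 1 and 2 of the MaeaCsf1r-Cre group lay above all controls and replicate 3 inside their range, with a log2 fold change of 0.23 (SE 0.16, adjusted p = 0.967 from limma), or 0.11 without control replicate 2. Ldhb, the heart-type subunit, averaged 43.7 ± 18.7 and 32.3 ± 14.1 CPM (SD, n = 3 each), differed by -0.41 on the log2 scale (SE 0.42), and was lower in each numbered pair. Ldha held 94.8 ± 2.55% of the family's CPM per kilobase in control and 96.6 ± 1.75% in MaeaCsf1r-Cre HSCs.

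The kinases that switch off pyruvate dehydrogenase were headed by Pdk3, with 71.6 ± 4.35% of their CPM per kilobase in control and 74.5 ± 2.74% in MaeaCsf1r-Cre HSCs (SD, n = 3 each). Pdk3 averaged 101 ± 13.6 and 101 ± 6.72 CPM. Pdk1 (chr2:71873224-71903858) was at 45.9, 45.6 and 43.8 CPM in control and at 39.6, 43.5 and 40.0 CPM in MaeaCsf1r-Cre replicates. Its groups did not overlap, but the gap was 0.321 CPM, the log2 fold change was -0.13 (SE 0.12, adjusted p = 0.967 from limma) and its sign turned with the length correction, to 0.03. Pdk2 averaged 22.5 ± 3.69 and 19.1 ± 5.84 CPM with overlapping groups. The subunits of pyruvate dehydrogenase itself, Pdha1 and Pdhb, had log2 fold changes of -0.08 (SE 0.13) and 0.08 (SE 0.15).

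All 5 glycogen members had a lower mean in MaeaCsf1r-Cre HSCs, with Gys1 turning sign with median ratio scaling, quantile normalization or the length correction and Pygb without MaeaCsf1r-Cre replicate 1. Pygm (chr19:6384399-6398459), the muscle isozyme of glycogen phosphorylase, was at 10.6, 17.4 and 14.7 CPM in control and at 0.772, 3.35 and 5.84 CPM in MaeaCsf1r-Cre replicates 1, 2 and 3. The lowest control lay 4.71 CPM above the highest MaeaCsf1r-Cre library, and the paired differences on the log2 scale were -2.71, -2.08 and -1.20. The means were 14.2 ± 3.44 and 3.32 ± 2.53 CPM (SD, n = 3 each), a ratio of 0.234. Its log2 fold change of -1.99 (SE 0.46, adjusted p = 0.967 from limma) was the farthest from 0 of all members, and it was -1.64 without replicate 1 of both groups. Leaving out 1 library at a time gave -1.45 to -2.43 and no call.

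Pygb and Pygl, the brain and liver isozymes of the phosphorylase, were more abundant than Pygm in every library. Pygb was at 50.6, 67.0 and 70.0 CPM in control and at 41.3, 60.1 and 64.6 CPM in MaeaCsf1r-Cre replicates. Pygl was at 44.2, 57.5 and 56.3 CPM in control and at 36.1, 39.5 and 52.8 CPM in MaeaCsf1r-Cre replicates. Both were lower in each numbered pair and had overlapping groups, with log2 fold changes of -0.19 (SE 0.20) and -0.30 (SE 0.18), or -0.06 and -0.20 with the length correction. Without MaeaCsf1r-Cre replicate 1 that of Pygl was -0.19. Of the CPM per kilobase of the 3 phosphorylases Pygm held 11.7, 14.3 and 12.2% in control replicates and 1.17, 3.92 and 5.61% in MaeaCsf1r-Cre replicates. The shares of Pygb were 41.5 ± 1.22 and 47.8 ± 3.35% and those of Pygl 45.8 ± 1.11 and 48.6 ± 4.14% (SD, n = 3 each), while the family sum was 38.5 CPM per kilobase in control and 29.6 CPM in MaeaCsf1r-Cre HSCs.

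On the side of synthesis, Gbe1, the glycogen branching enzyme, was at 9.40, 15.6 and 20.9 CPM in control and at 9.19, 10.1 and 14.4 CPM in MaeaCsf1r-Cre replicates. Gys1, the glycogen synthase of tissues other than liver, was at 10.9, 12.5 and 12.9 CPM in control and at 8.70, 14.7 and 12.5 CPM in MaeaCsf1r-Cre replicates. Both pairs of groups overlapped, with log2 fold changes of -0.37 (SE 0.30) and -0.04 (SE 0.22). That of Gbe1 was -0.13 without control replicate 3 and -0.66 without control replicate 1. Gys1 shares exon sequence with its neighbour Ruvbl2, which was at 99.2 to 132 CPM.

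**Figure D5:**
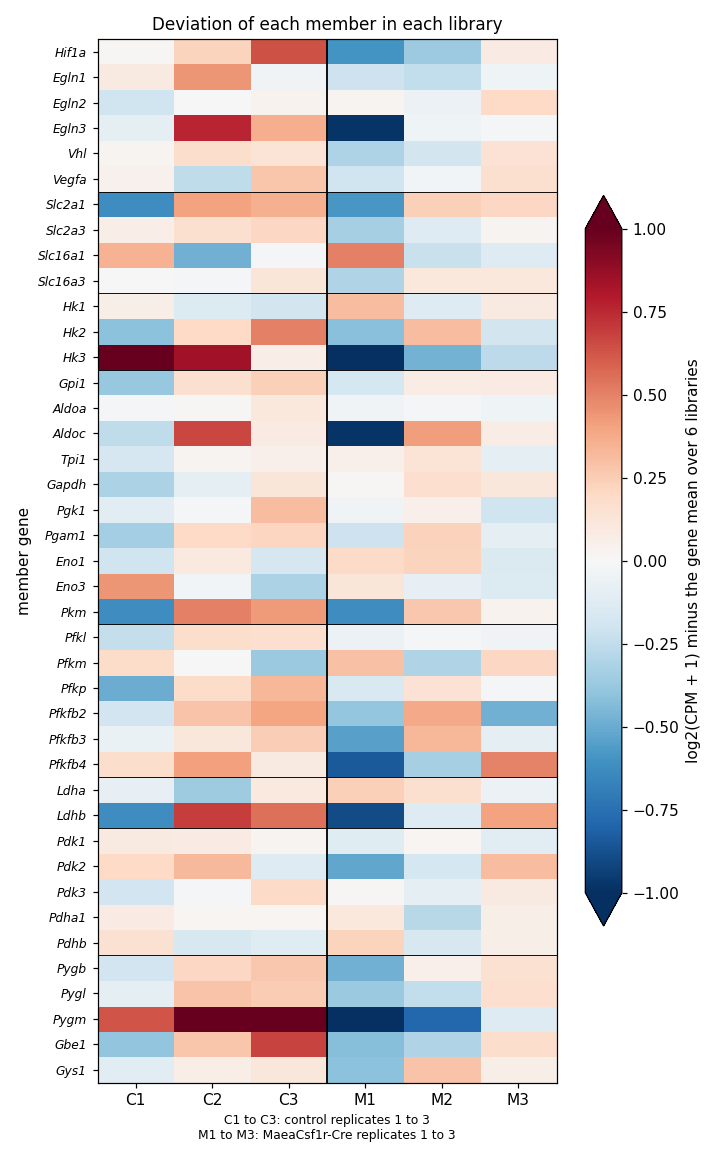
Deviation of each member in each library from its mean over the 6 libraries on log2(CPM + 1), with rows grouped by role and colours cut at 1 in either direction. Pygm is red in all control and blue in all MaeaCsf1r-Cre libraries, while Pkm, Slc2a1 and Ldhb are lowest in replicate 1 of both groups.

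The other genes of the same pathways were taken from 5 lists with 112 genes, of which 89 were tested and 0 were called by limma. An unadjusted p under 0.05 was found for 5 of them, against 3.99% of all genes, and for 12 with the block, against 13.9%. Groups did not overlap for 7 of them (7.87%), against 8.55% of all genes. Among 17 tested genes of glycogen metabolism outside the 5 members, 15 had a lower and 2 (Phkg2 and Gsk3a) a higher mean in MaeaCsf1r-Cre HSCs. Their median log2 fold change was -0.21, against -0.06 over all genes, and -0.03 against 0.03 with the length correction. Phkb, the regulatory beta subunit of phosphorylase kinase, which activates glycogen phosphorylase, was at 27.9, 33.6 and 29.1 CPM in control and at 21.8, 22.5 and 26.6 CPM in MaeaCsf1r-Cre replicates, without overlap (log2 fold change -0.34, SE 0.15, and -0.18 with the length correction). Gyg, the glycogenin that primes glycogen, averaged 82.0 ± 9.39 and 67.7 ± 9.46 CPM, and Epm2a, the glycogen phosphatase laforin, 2.19 ± 0.622 and 1.26 ± 0.732 CPM (SD, n = 3 each).

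Of 22 tested hypoxia response genes 12 had a higher and 10 a lower mean, with a median log2 fold change of 0.02. Hmox1, the inducible haem oxygenase, which macrophages also express, was at 9.95, 8.86 and 15.5 CPM in control and at 0.361, 0.317 and 5.44 CPM in MaeaCsf1r-Cre replicates 1, 2 and 3. The groups did not overlap, and MaeaCsf1r-Cre replicates 1 and 2 held the lowest values. The part of macrophage RNA in them was not tested. The log2 fold change was -2.42 (SE 0.59, adjusted p = 0.967 from limma), with an adjusted p of 0.0412 without MaeaCsf1r-Cre replicate 3 and 0.0437 with the block and the length correction together. P4ha1, a collagen prolyl hydroxylase, averaged 19.1 ± 2.63 and 13.7 ± 1.88 CPM without overlap, and Ak4, a mitochondrial adenylate kinase, 12.9 ± 3.81 and 6.84 ± 3.26 CPM (SD, n = 3 each).

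Of 13 tested partners of the HIF pathway 6 had a higher and 7 a lower mean. The genes with the smallest p were Ep300, the acetyltransferase that HIF-1 recruits, with a log2 fold change of -0.28 (SE 0.14), Siah1a, a ubiquitin ligase for EGLN proteins, with -0.26 (SE 0.16), and Hif1an, the asparagine hydroxylase FIH, with -0.18 (SE 0.13). With the length correction Ep300 was at -0.08 and Hif1an at -0.0072, and without control replicate 2 Ep300 was at -0.18. Of 27 other tested genes of glycolysis and pyruvate metabolism 13 had a higher and 14 a lower mean. Fbp1, a gluconeogenic phosphatase also expressed in myeloid cells, was at 43.6, 53.6 and 7.45 CPM in control and at 1.94, 4.03 and 5.999 CPM in MaeaCsf1r-Cre replicates. Control replicates 1 and 2 stood far above the other 4 libraries, and the log2 fold change was -2.55 (SE 0.68, adjusted p = 0.967 from limma). Emb, an ancillary protein of monocarboxylate transporters, averaged 80.02 ± 21.2 and 44.5 ± 15.5 CPM without overlap, and Galm, galactose mutarotase, 18.1 ± 4.37 and 12.0 ± 4.27 CPM (SD, n = 3 each).

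The pentose phosphate pathway, which branches from glucose 6-phosphate, had 10 tested genes, 6 with a higher and 4 with a lower mean and a median log2 fold change of 0.05. Prps2, which makes phosphoribosyl pyrophosphate, averaged 86.8 ± 3.44 and 74.5 ± 7.40 CPM without overlap, Rpe 46.3 ± 7.60 and 39.3 ± 6.62 CPM, and Taldo1, transaldolase, 251 ± 55.5 and 297 ± 72.4 CPM (SD, n = 3 each). No list as a whole was tested, since its genes were chosen with earlier results of these data known.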

How the data were processed

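The deposited table held CPM values that the authors made by trimming reads with Trim Galore, aligning them to mm10 with STAR 2.5.3a and quantifying and normalising them to Ensembl transcripts in Partek Flow (single-end reads, no strand marked). The added constant of 0.0001 was subtracted. The deposited CPM lay on whole reads for 72.4 to 75.0% of values under 3 CPM (tolerance 0.05 reads), so no count test was used. The members and lists were chosen with earlier results of these data known. The 12955 genes with 1 CPM or more in 3 or more libraries entered limma's moderated test (two-sided, genotype as the only term, trend on) on log2(CPM + 1), and p-values were adjusted over all of them by Benjamini and Hochberg's method and called under 0.05. In simulated data 200 of 12955 genes were changed. The test recovered 116 of them at a 2-fold and 191 at a 4-fold change, with 5 and 6 false calls. The blocked fit recovered 0 and 184, with 0 and 3 false calls. With no gene changed, neither fit called any. Coordinates and transcript lengths (longest transcript) came from GENCODE M21 for GRCm38, and genes were matched by symbol. Same-numbered libraries, numbered in the sample labels, had correlated deviations from their group means (Pearson's r 0.63, 0.52 and 0.40 across genes, against -0.46 to -0.05 for other pairs), so the replicate number was also used as a block. Named were 19 members by name, any other member with groups that did not overlap or an unadjusted p under 0.05, and the 3 genes with the smallest p of each pathway list. Alternatives were no filter, a filter at 10 CPM, a pseudocount of 0.1 CPM, median ratio scaling, quantile normalization, no trend, the block, a loess correction for transcript length (span 0.5), both together, and each library left out. Leaving out replicate 1 of both groups and adding near-identical copies were chosen after seeing the data. Tools were limma 3.58.1 in R 4.3.3, with matplotlib 3.10.9, pandas 2.3.3 and numpy 2.4.6 under Python 3.11.15.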

Additional observations from a re-analysis of the deposited data

How the results depend on the processing

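No member was called under any of the 17 alternatives, and the median log2 fold change of the members stayed below 0 (-0.03 to -0.22). Of all genes tested 1 was called, against 0 with the filter at 10 CPM (302 by unadjusted p), 17 with the replicate block and the length correction together, 0 without replicate 1 of both groups (667 by unadjusted p), and 0 to 3 when 1 library was left out. Of the other pathway genes 0 were called, against 1 (Hmox1) with the block and the length correction and 0 to 1 when 1 library was left out. Members with groups that did not overlap numbered 5, against 18 without replicate 1 of both groups (43.9%, and 34.9% of all genes) and 5 to 18 when 1 library was left out (12.2 to 43.9%, and 13.1 to 28.9% of all genes), where fewer libraries are compared. The block alone changed no call.

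Among 36 named genes 33 of 606 values turned sign, in 9 genes, and the cause was not tested. As log2 fold changes, median ratio scaling gave Vegfa 0.0126, Pfkp 0.0443 and Gys1 0.0136, and quantile normalization gave Vegfa 0.123, Pfkp 0.0144 and Gys1 0.0903. The length correction, alone or with the block, gave Vegfa 0.0754, Slc2a1 0.0208, Pfkl 0.0524, Pfkp 0.119, Pdk1 0.0259 and Gys1 0.0791. Without replicate 1 of both groups Vegfa was 0.0591 and Gys1 0.0819. With 1 library left out the ranges were -0.181 to 0.0841 for Vegfa, -0.426 to 0.179 for Slc2a1, -0.452 to 0.00770 for Hk2, -0.269 to 0.145 for Pfkp, -0.570 to 0.0502 for Pkm, -0.329 to 0.00759 for Pygb and -0.198 to 0.15 for Gys1.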
